A study of Mus musculus with 4 samples.

Results

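The 10 genes described here encode transcription factors of dorsal spinal interneurons and of sensory neurons: the POU-homeodomain factors Pou4f1, Pou4f2 and Pou4f3, the homeodomain factors Tlx1, Tlx3, Lbx1, Barhl1, Barhl2 and Gbx1, and the paired-type homeodomain factor Drgx. They were chosen by known function, leaving out LIM-homeodomain and proneural factors, from 21822 gene units counted in the series. RNA was sequenced from aggregates of iMN-ESCs, a mouse embryonic stem cell line of C57BL/6 background that carries a fusion of Isl1 and Lhx3 under doxycycline (Dox) control. Isl1 and Lhx3 are LIM-homeodomain factors that act together in spinal motor neurons. Aggregates spent 2 days in stem cell medium with LIF then 2 days with all-trans retinoic acid at 0.5 µM, and finally 2 to 3 more days in retinoic acid either without Dox or with 2 µg/mL Dox. Each group held 2 libraries, and the library values are given one by one. Both groups carried the transgene, and no library had Dox without it, so what the fusion does and what Dox does by itself cannot be told apart.

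During development the dorsal spinal cord gives rise to classes of interneurons numbered dI1 to dI6 from the roof plate downwards, each marked by its own combination of transcription factors. Barhl1 and Barhl2 mark the dI1 neurons that descend from Atoh1-expressing progenitors, Pou4f1 (Brn3a) marks several of the dorsal classes and most sensory neurons, and Lbx1 marks the deeper classes dI4 to dI6. Tlx1 and Tlx3 select an excitatory, glutamatergic fate, and Drgx acts with them in the pain circuits of the dorsal horn and in sensory ganglia. Retinoic acid alone directs such aggregates towards spinal neural tissue, and motor neurons arise in the ventral cord, away from all of these classes.

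Pou4f1 was the factor whose level changed most clearly, and Tlx3 was the tested factor with the smallest difference, so the 250 bases before the annotated start of these genes are shown for reference. The sequences are from RefSeq, build GRCm38.p6, and run 5′ to 3′ on the gene's own strand, which is the minus strand for both. Pou4f1 lies at chr14:104468000-104468249 and Tlx3 at chr11:33203589-33203838 in these windows. Capitals mark the E-box CANNTG, the letters bound by basic helix-loop-helix factors such as Atoh1, and the homeodomain core TAAT read on both strands (ATTA on the strand shown).
Pou4f1: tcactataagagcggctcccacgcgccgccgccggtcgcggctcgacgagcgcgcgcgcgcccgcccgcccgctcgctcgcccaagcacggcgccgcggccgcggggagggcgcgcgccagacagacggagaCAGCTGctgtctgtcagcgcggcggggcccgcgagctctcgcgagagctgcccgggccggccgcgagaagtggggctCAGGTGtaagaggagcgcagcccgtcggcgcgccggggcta
Tlx3: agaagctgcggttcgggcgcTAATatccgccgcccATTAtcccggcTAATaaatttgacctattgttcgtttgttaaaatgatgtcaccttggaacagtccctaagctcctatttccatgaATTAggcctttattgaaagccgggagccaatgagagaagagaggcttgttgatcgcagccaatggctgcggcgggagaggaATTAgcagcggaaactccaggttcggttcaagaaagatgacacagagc
The Pou4f1 window was 78.0% G or C, with 2 E-boxes and 0 TAAT cores, whereas the Tlx3 window was 48.8% G or C, with 0 E-boxes and 5 TAAT cores. E-boxes and TAAT cores can overlap one another, but each match was counted by its own start. Of 32851 promoter windows of this length, 66.2% held at least 1 CANNTG and 54.9% at least 1 TAAT on either strand. These letters are a description of the windows. The count files carry no positions and no binding data.

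Part counts summed to 24020832 to 53903936 per library. The targeted factors followed the labels: Lhx3 stood at 0.404 and 0.286 counts per 1000000 (CPM) in the no Dox libraries against 125 and 108 CPM in the Dox libraries, and Isl1 at 3.08 and 5.84 CPM against 104 and 82.4 CPM. Of 7 motor neuron markers, edgeR's quasi-likelihood test called 6 higher with Dox, and Isl2 was not called (adjusted p = 0.350). Those called include Isl1 and Lhx3 themselves, whose reads may come from the fusion transgene. The others called were Mnx1, Chat, Slc18a3 and Slc5a7. Across 14278 genes tested, 175 (1.23%) were called higher and 8 (0.056%) lower at a Benjamini-Hochberg adjusted p under 0.05, and the median log2 fold change was -0.01. The count of falls depended on the libraries, at 19 to 116 with 1 left out. The 5 neuron markers (Tubb3, Elavl3, Elavl4, Stmn2 and Map2) were present in every library and summed to 307 and 267 CPM in the no Dox libraries and to 220 and 169 CPM in the Dox libraries.

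Of the 10 dorsal and sensory factors, 5 had enough counts to be tested, namely Pou4f1, Lbx1, Gbx1, Tlx3 and Drgx. The test called 1 of these lower, Pou4f1, and 0 higher, against 0.056% of all tested genes called lower and 1.23% called higher. Before adjustment 2 were lower at p under 0.05 (Pou4f1 and Gbx1) and 0 higher, against 4.01% and 6.25% of all genes. DESeq2 and limma-voom also called Pou4f1 alone. In 4 of the 5 both libraries with Dox lay below both libraries without Dox, as in 19.9% of all tested genes. Tlx3 was the exception, and in 0 of the 5 did both Dox libraries lie above both others, against 18.9% of all genes. The other 5 factors (Tlx1, Pou4f2, Barhl1, Pou4f3 and Barhl2) had at most 6 counts in any library. The levels of all 10 factors summed to 40.2 and 41.0 CPM in the no Dox libraries and to 18.7 and 15.4 CPM in the Dox libraries. Pou4f1 supplied 73.5% and 76.2% of those counts without Dox and 61.0% and 67.0% with Dox.

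**Figure D1:**
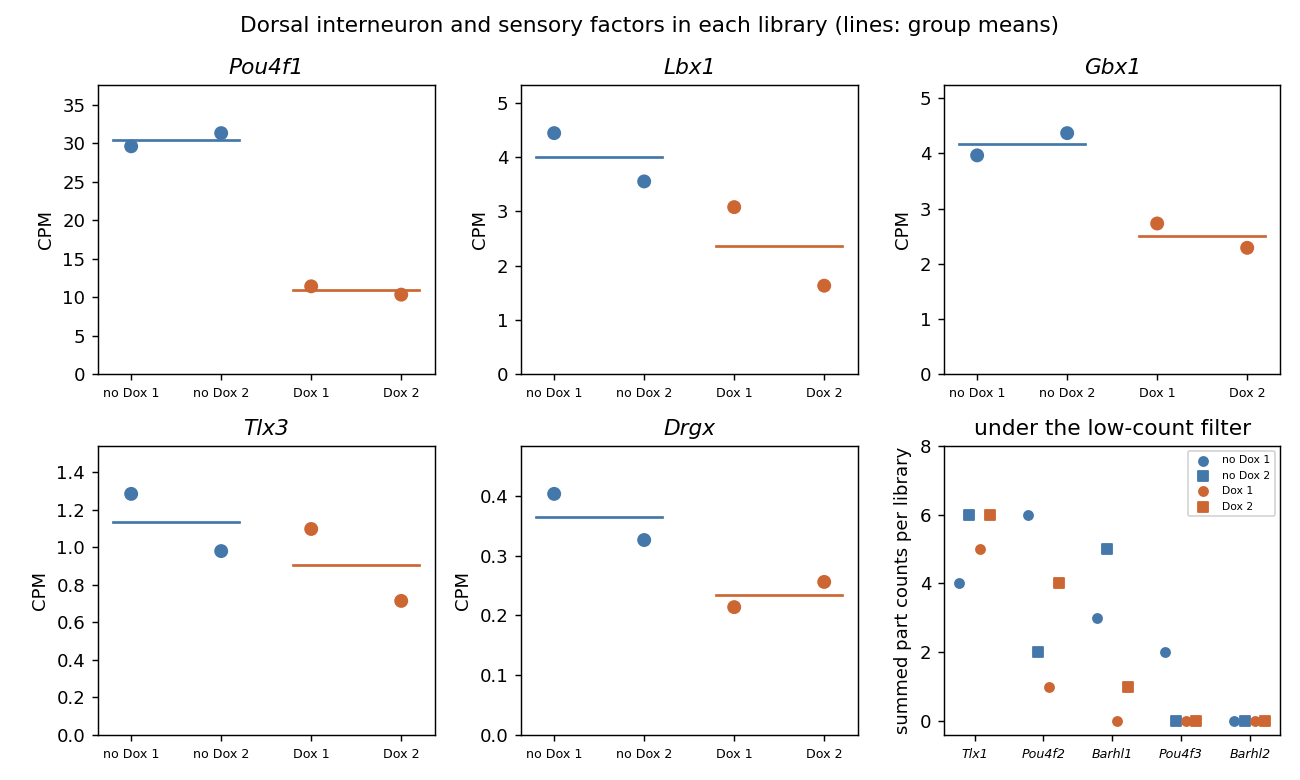
Level of each factor in each library: counts per 1000000 (CPM, linear axes from 0) for the 5 tested genes, with lines at the group means, and raw summed counts for the 5 genes with too few counts. Pou4f1 falls from 29.6 and 31.3 CPM to 11.4 and 10.3 CPM, while the libraries overlap for Tlx3 and the last panel stays at 6 counts or fewer.

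Levels of different genes can be compared per length of exon. On the scale of CPM per kb of exon, averaged over the 4 libraries, the order was Pou4f1 (4.64), Lbx1 (1.28), Gbx1 (0.960), Tlx3 (0.664) and Drgx (0.186), with Tlx1 (0.0769), Pou4f2 (0.0313), Barhl1 (0.0227), Pou4f3 (0.00778) and Barhl2 (0) below them. Pou4f1 was the highest in each library, from 2.32 to 7.04 CPM per kb. Neighbours in the order were less distinct: Lbx1 ran from 0.656 to 1.79 CPM per kb and Gbx1 from 0.658 to 1.26 CPM per kb, so these did not differ beyond their spread. Tlx3 ran from 0.466 to 0.838 CPM per kb, which overlaps both ranges, but within each library it lay below both. Drgx, at 0.133 to 0.251 CPM per kb, lay below Tlx3 in every library.

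Pou4f1, which maintains sensory neuron identity and marks several dorsal interneuron classes, stood at 29.6 and 31.3 CPM in the no Dox libraries and at 11.4 and 10.3 CPM in the Dox libraries. These values came from 806 and 767 counts without and 426 and 564 counts with Dox. Both Dox libraries were low, and the groups stood far apart compared with the small gaps within them. The log2 fold change was -1.49 (SE 0.15, 95% interval -1.84 to -1.13, edgeR adjusted p = 0.00906), a 2.80-fold lower mean CPM. It was 1 of the 8 genes called lower in the whole table. The change ran from -1.56 without Dox replicate 1 to -1.40 without Dox replicate 2, and Pou4f1 stayed past the threshold in all 12 alternatives tried, with a largest adjusted p of 0.0138.

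**Figure D2:**
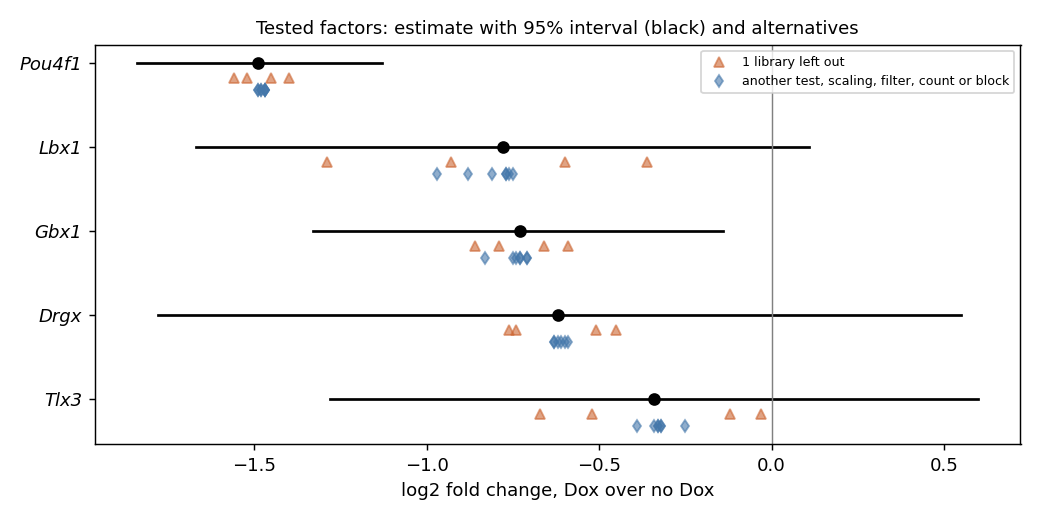
Log2 fold change with Dox over no Dox for the 5 tested factors, with the 95% interval of the edgeR fit in black, fits without 1 library as triangles and other alternatives as diamonds. Pou4f1 lies near -1.49 throughout, whereas Lbx1 moves between -1.29 and -0.36 as single libraries are left out.

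The files count Pou4f1 in 3 numbered parts, which carry no position. Part 1 stood at 21.3 and 25.9 CPM in the no Dox libraries and at 8.64 and 8.02 CPM in the Dox libraries. Part 2 stood at 6.38 and 4.20 CPM against 2.06 and 1.74 CPM, and part 3 at 1.91 and 1.14 CPM against 0.696 and 0.567 CPM. In each part both Dox libraries were below both others. The ratio of summed counts was -1.51 on the log2 scale in part 1 (95% counting interval -1.64 to -1.37), -1.52 in part 2 (-1.80 to -1.24) and -1.32 in part 3 (-1.84 to -0.81), so the counting intervals of the 3 parts overlapped. The share of the gene's counts in part 1 varied more between the libraries without Dox (72.0% and 82.9%) than between those with Dox (75.8% and 77.7%).

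**Figure D3:**
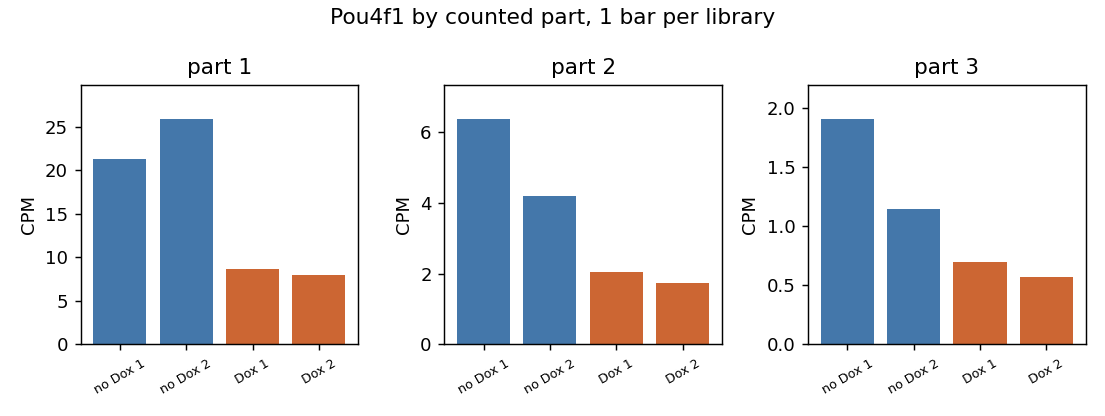
Counts per 1000000 (CPM) of the 3 counted parts of Pou4f1, 1 bar per library with axes from 0. In every part both Dox bars are lower than both bars without Dox, and part 1 holds most of the signal.

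The close relatives of Pou4f1 were nearly silent. Pou4f2 (Brn3b), best known from retinal ganglion cells, had 6 and 2 counts without Dox and 1 and 4 counts with Dox. The depth-scaled ratio of 0.352 had a 95% counting interval of 0.0905 to 1.22, so a difference was not detectable at this depth. Pou4f3 (Brn3c), a factor of inner-ear hair cells, had 2 counts in no Dox replicate 1 and 0 in the other 3 libraries, and no ratio is given. Markers of both cell types were mixed. Among the retina markers Atoh7 had 0 or 1 count per library, Vax2 had 45 to 111 and the others at most 15. Among the hair cell markers Gfi1, Tmc1 and Lhfpl5 had 1 to 8 counts, while Espn (15.1 to 21.4 CPM) and Myo7a (6.64 to 8.05 CPM) were well above that and overlapped between groups. Otof stood at 0.807 and 0.734 CPM in the no Dox libraries and at 2.41 and 2.07 CPM in the Dox libraries. Of 6 retina markers 2 were tested and of 6 hair cell markers 3, with 0 called by the main edgeR fit or DESeq2 in either list. With a replicate block, which pairs same-numbered libraries, edgeR called 1 hair cell marker higher and 0 retina markers. Before adjustment 0 retina markers and 1 hair cell marker, which was higher, had p under 0.05, against 6.25% of all genes higher. The summed retina markers ran from 2.45 to 3.58 CPM and overlapped between groups. The summed hair cell markers stood at 29.1 and 24.1 CPM in the no Dox libraries and at 29.3 and 30.5 CPM in the Dox libraries. Both Dox sums were thus the higher, but Dox replicate 1 lay close to no Dox replicate 1.

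Lbx1, which marks dI4 to dI6 neurons and holds many of them to an inhibitory fate, stood at 4.44 and 3.55 CPM in the no Dox libraries and at 3.08 and 1.63 CPM in the Dox libraries. The Dox libraries were the lower pair, but Dox replicate 1 lay closer to the libraries without Dox than to Dox replicate 2 on the log scale. The log2 fold change was -0.78 (SE 0.36, 95% interval -1.67 to 0.11) and did not pass the edgeR test (adjusted p = 0.568). Leaving out Dox replicate 1 gave -1.29 and leaving out Dox replicate 2 gave -0.36, so its size rested on which Dox library was kept. The parts of Lbx1 gave -1.04 (95% counting interval -1.39 to -0.69) and -0.48 (-0.99 to 0.04) as log2 ratios of summed counts.

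Gbx1, a factor of late-born inhibitory neurons of the dorsal horn, stood at 3.96 and 4.37 CPM in the no Dox libraries and at 2.73 and 2.29 CPM in the Dox libraries. The groups did not overlap and the gaps within them were small. The log2 fold change was -0.73 (SE 0.24, 95% interval -1.33 to -0.14), with an unadjusted p of 0.0229 and an edgeR adjusted p of 0.339. With 1 library left out it ran from -0.86 to -0.59, below 0 each time. Most counts of Gbx1 fell in its part 1, at 75.2% to 87.8% of the gene.

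Tlx3, the selector of glutamatergic fate in dI3 and dI5 neurons, stood at 1.28 and 0.979 CPM in the no Dox libraries and at 1.10 and 0.714 CPM in the Dox libraries. The groups overlapped. Its log2 fold change of -0.34 (SE 0.38, edgeR adjusted p = 0.876) had a 95% interval from -1.28 to 0.60, which holds a fall of the size seen for Lbx1 and Gbx1 as well as a rise. The related Tlx1 had 4 and 6 counts without and 5 and 6 counts with Dox, a depth-scaled ratio of 0.619 (95% counting interval 0.239 to 1.62). An annotated antisense gene, Tlx1os, overlaps Tlx1, and reads of the pair may not be separated because the strand setting of the counting is not given in the sources used here.

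Drgx, which acts downstream of Tlx factors in dorsal horn and nociceptive neurons, stood at 0.404 and 0.326 CPM in the no Dox libraries and at 0.214 and 0.256 CPM in the Dox libraries. It passed the filter with 11 and 8 counts without and 8 and 14 counts with Dox. The Dox libraries were the lower pair. Its log2 fold change was -0.62 (SE 0.48, 95% interval -1.78 to 0.55, edgeR adjusted p = 0.796), so neither a fall nor a rise could be told at this depth.

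Barhl1, a marker of dI1 neurons, had 3 and 5 counts without Dox and 0 and 1 with Dox. The depth-scaled ratio of summed counts was 0.0703, with a 95% counting interval of 0.00158 to 0.524 that leaves out the spread between replicates. Barhl1 was under the filter and has no replicate test. Atoh1, the proneural gene of dI1 progenitors, was similarly scarce, with 7 and 4 counts without Dox and 2 with Dox in each library (ratio 0.205, 95% counting interval 0.0475 to 0.690). Both genes also mark cerebellar granule neurons. Of 6 granule markers 4 were tested, with 0 called by the main edgeR fit, 1 lower by DESeq2 and 3 lower with the replicate block. Before adjustment 1 was lower at p under 0.05, against 4.01% of all genes. Barhl2, the other Barhl gene, had 0 counts in all 4 libraries, which at 3 counts per library allows up to 0.110 and 0.122 CPM in the no Dox group and 0.0803 and 0.0549 CPM in the Dox group. Lhx9, a LIM factor also used to mark dI1 neurons, had 2 and 1 counts without Dox and 22 and 34 with Dox, with a ratio of 10.5 (95% counting interval 3.41 to 52.4) but without a call (edgeR adjusted p = 0.0737). Lhx2, a LIM factor of the same comparison list with more counts, had 99 and 78 without Dox and 107 and 228 with Dox. Its groups overlapped in CPM, with a log2 fold change of 0.05 (SE 0.28, edgeR adjusted p = 0.991). Lhx9 and Lhx2 were chosen after their values were seen.

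The progenitor genes upstream of these neurons gave 0 calls in the main fit but more in several alternatives. Of 13 dorsal progenitor factors 12 were tested, and the main edgeR fit called 0 higher and 0 lower. With the replicate block 1 was higher and 8 were lower, and with no filter 4 were lower. By DESeq2 1 was higher and 5 were lower, and with 1 library left out edgeR called 5 lower (Dox replicate 1 absent), 3 (no Dox replicate 2 absent), 2, with 1 higher (Dox replicate 2 absent) or 0 (no Dox replicate 1 absent). Before adjustment, 7 had a lower and 1 a higher level at p under 0.05, against 4.01% and 6.25% of all genes. The median log2 fold change was -1.29 beside -0.01 for all genes. Pax3, a factor of the whole dorsal progenitor zone, stood at 54.3 and 36.2 CPM in the no Dox libraries and at 21.6 and 12.01 CPM in the Dox libraries (edgeR adjusted p = 0.144). Msx1, a roof plate and dorsal midline factor, stood at 13.9 and 12.3 CPM against 44.5 and 23.3 CPM (adjusted p = 0.149). The 2 lowest fold changes of the list, named after their values were seen, were those of Ptf1a, which sets the inhibitory dI4 fate (log2 fold change -3.73, SE 0.66, adjusted p = 0.0705), and Olig3, a factor of dI1 to dI3 progenitors (-3.43, SE 0.62, adjusted p = 0.0755).

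Partner factors of the dorsal classes were similar. Of 13, 12 were tested, and the main edgeR fit called 0 in either direction, limma-voom 1 lower and DESeq2 4 lower. With the replicate block 1 was higher and 6 were lower. With 1 library left out edgeR called 5 lower without Dox replicate 1 and 2 lower without each of the others. Before adjustment 6 had a lower and 1 a higher level at p under 0.05, against 4.01% and 6.25% of all genes. The median log2 fold change was -0.93. Tfap2b, a factor of inhibitory dorsal interneurons, stood at 85.7 and 67.1 CPM in the no Dox libraries and at 40.4 and 31.7 CPM in the Dox libraries (edgeR adjusted p = 0.0616). Prdm13, which acts with Ptf1a, stood at 28.4 and 23.5 CPM against 11.2 and 7.32 CPM (adjusted p = 0.0561). Foxp2 overlapped between the groups, at 20.8 and 14.0 CPM against 22.0 and 15.7 CPM.

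Sensory neuron genes did not share 1 direction. Of 18, 16 were tested, and the main edgeR fit called 1 higher and 0 lower. The counts were 2 and 3 in DESeq2, and 3 and 5 with the replicate block. Before adjustment 2 had a higher and 5 a lower level at p under 0.05, against 6.25% and 4.01% of all genes. Their median log2 fold change was -0.34, and 0.05 without no Dox replicate 1. With no Dox replicate 2 absent edgeR called 2 higher and 2 lower, and with Dox replicate 1 absent 2 higher and 1 lower. Sncg, a synuclein of peripheral neurons that motor neurons make too, rose with Dox, from 11.01 and 13.1 CPM in the no Dox libraries up to 50.5 and 65.1 CPM in the Dox libraries; the log2 fold change was 2.26 (SE 0.18, edgeR adjusted p = 0.00451). The neural crest, from which most trunk sensory neurons descend, had 7 markers, of which 6 were tested. The main edgeR fit called 0 of them, DESeq2 1 higher, and the replicate block 1 higher and 1 lower. Before adjustment 1 was higher and 1 lower at p under 0.05, against 6.25% and 4.01% of all genes. Their median log2 fold change was -0.22, and -0.31 to -0.16 with 1 library left out. Their summed level ran from 68.0 to 75.9 CPM without Dox and from 73.5 to 73.8 CPM with it. Sox10, the defining gene of crest and its glia, had 1 to 6 counts per library.

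Transmitter genes tied to the Tlx and Lbx1 fates were all low. Of 6 tested, the main edgeR fit, limma-voom and DESeq2 each called 0, and the replicate block called 2 lower. Before adjustment 3 had p under 0.05, each lower, against 4.01% of all genes lower. Gad2, which makes GABA, stood at 2.86 and 3.06 CPM in the no Dox libraries and at 3.42 and 3.50 CPM in the Dox libraries. Gad1, the other such enzyme, stood at 2.79 and 1.55 CPM against 0.883 and 0.513 CPM (edgeR adjusted p = 0.226). Slc17a7, a vesicular glutamate transporter, stood at 1.36 and 0.816 CPM against 0.829 and 1.35 CPM, with overlap. Slc17a6, another such transporter, named after its values were seen, had 11 and 12 counts without Dox and 7 and 4 with Dox. Its log2 fold change was -1.83 (SE 0.61, edgeR adjusted p = 0.347). The list median was -0.69. Leaving out Dox replicate 1 gave a median of -1.64 and 1 edgeR call, lower, and leaving out no Dox replicate 2 gave -1.21 and 0 calls.

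**Figure D4:**
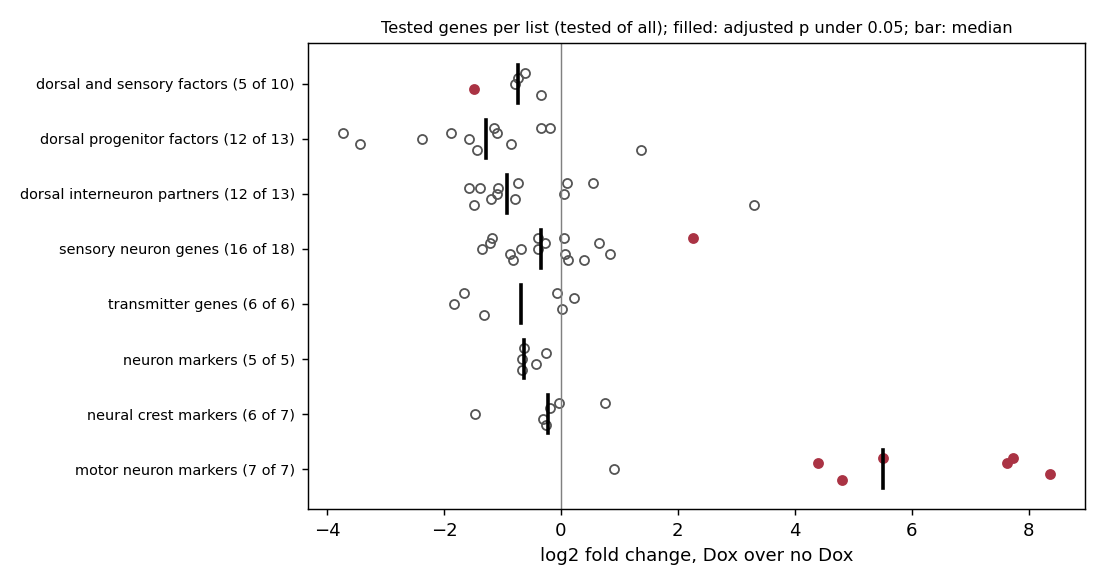
Log2 fold change with Dox over no Dox of every tested gene of the dorsal and sensory factors and of 7 comparison lists, with filled points for an adjusted p under 0.05 in edgeR and bars at the list medians. The medians of the dorsal lists lie below 0, at -0.73, -1.29 and -0.93, next to -0.63 for neuron markers and 5.51 for motor neuron markers. The motor neuron list includes Isl1 and Lhx3, the factors of the fusion.

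In bulk aggregates, fewer cells of a type and less RNA per cell cannot be told apart. Of the 5 general neuron markers, all 5 had both Dox libraries below both others (19.9% of all tested genes did), with a median log2 fold change of -0.63. The main edgeR fit called 0 of these 5, but with the replicate block 4 were called lower. With 1 library left out the median ran from -0.78 (Dox replicate 1 absent) to -0.32 (Dox replicate 2 absent). DESeq2 called 1 lower, and before adjustment 2 had p under 0.05, both lower, against 4.01% of all genes lower. Set against the summed CPM of these markers in the same library, a scale chosen after seeing the data, Pou4f1 stood at 9.64% and 11.7% without Dox and at 5.18% and 6.10% with Dox. On that scale its mean was 1.89-fold lower with Dox, and the groups still did not overlap. The share of all tested genes without overlap on that scale was not computed, and the 19.9% above holds for CPM only. Lbx1 (1.45% and 1.33% against 1.40% and 0.962%), Gbx1 (1.29% and 1.63% against 1.24% and 1.35%) and Drgx overlapped between groups on that scale. Tlx3 lay slightly higher with Dox there, at 0.419% and 0.367% against 0.498% and 0.422%, the reverse of its direction in CPM.

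The genes whose pattern over the 4 libraries was most like that of Pou4f1 were sought among 10724 genes averaging 5 CPM or more, by the distance between centred log2 (CPM + 0.5) values. The nearest was Ndnf, a secreted neuronal factor (distance 0.103), followed by Lgr5, an R-spondin receptor (0.236), Minar2 (0.271), S100g, a calcium-binding protein (0.299), and Ntrk3, the neurotrophin-3 receptor of proprioceptive sensory neurons (0.331). Ntrk3 stood at 11.2 and 9.06 CPM in the no Dox libraries and at 4.25 and 3.68 CPM in the Dox libraries. Its log2 fold change was -1.35 (SE 0.22, edgeR adjusted p = 0.0543). With 4 libraries such likeness describes a shared step between the groups and no more.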

How the data were processed

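RNA libraries of 4 samples, 2 without and 2 with Dox, were compared, with groups and replicate numbers from the sample titles and biological duplicates per the series' design text. The deposited files hold whole-number counts for 208825 parts of RefSeq gene units. TopHat and mouse build mm9 are named, per the submitters' processing notes, while the tool that made the counts and its strand setting were not given in the sources used here. Each file's 4 rows that name no gene stayed out of totals and tests; reads outside genes made up 13.6% to 15.8% of all counts and ambiguous reads 0.411% to 0.521%.

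Parts were summed to 21822 units. A read spanning several parts may be counted in each. Of 27601 identifiers 97.1% matched a symbol in the RefSeq table of GRCm38.p6 or GENCODE M21, where Drgx appears as a synonym of Prrxl1, and of units sharing a symbol the largest was kept. Exon lengths came from the paired GENCODE transcripts. Promoter windows were taken for 7 of 10 factors: Pou4f3 was left out beforehand, and none was found for Lbx1 or Gbx1. The protein sequences of these factors are not used here.

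Counts were tested with edgeR 4.0.16 (R 4.3.3) with its quasi-likelihood F test, using TMM scaling, robust dispersions, the default low-count filter and Benjamini-Hochberg adjustment over 14278 genes at 0.05. Alternatives used DESeq2 1.42.0, limma-voom (limma 3.58.1), other scalings and filters, the largest part as count, a replicate block and each library left out, which assumes that a lone library varies like the other group. Genes under the filter have exact 95% intervals on summed counts, and 0 counts a floor of 3 counts per library. Intervals and floors cover counting error only. Counts of replicates differed beyond sampling noise, with a chi-square over its degrees of freedom of 36.5 in the no Dox pair and 32.6 in the Dox pair. On simulated counts for this comparison, 14147 genes were run. The test found 70% of 100 genes set to a 2-fold change and 92% of 100 set to a 4-fold change. It made 5 false calls. The changed genes were drawn at random from all tested genes, and libraries were simulated without shared deviations. These rates therefore do not give the power for factors with few counts, and a factor without a call may still have changed.

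The factors, comparison lists and alternatives were chosen with earlier results of these data known. All 10 factors are named. Each dorsal, sensory or transmitter list names up to 4 called genes with the smallest adjusted p or, without a call, the 3 with the largest mean CPM, and the pattern search names 5 genes; some genes of these lists are not reported here by name.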

Additional observations from a re-analysis of the deposited data

How the results depend on the processing

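The fall of Pou4f1 kept its direction and stayed past the threshold in all 12 alternatives (log2 fold change -1.56 to -1.40). Lbx1, Gbx1, Tlx3 and Drgx stayed below 0 in the 10 or 11 alternatives that could be fitted, and the depth of Tlx3 and Drgx limits what can be said of them. The number of dorsal and sensory factors called lower was 1 in every alternative except the replicate block, which called 3 and gave Lbx1 -0.81 (adjusted p = 0.0232) and Gbx1 -0.74 (adjusted p = 0.0287). The titles share replicate numbers, but no label says that a number marks a shared batch. Same-numbered libraries deviated together from their group means (r = 0.606 across genes). With 2 libraries per group the deviations mirror each other, so both pairs give this same r and it is only 1 comparison. With the block 1044 genes were called higher and 862 lower, and 5 genes of the dorsal, sensory and transmitter lists higher and 21 lower.

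Counts over all genes moved more than those over the factors, but with only 5 factors tested these movements are not comparable. The cause was not tested. Genes called higher numbered 175, but 295 with no filter, 104 at a mean of at least 5 CPM, 398 in DESeq2 and 271 to 280 with 1 library left out. Genes called lower numbered 8, but 16 with library totals, 46 with no filter, 4 at a mean of at least 5 CPM, 113 in DESeq2, 13 in limma-voom, 14 with the largest part as count, and 19 to 116 with 1 library left out (24 or 91 with no Dox replicate 1 or 2 absent, and 116 or 19 with Dox replicate 1 or 2 absent). In the dorsal progenitor, partner, sensory and transmitter lists the calls lower were 0, but 4 with library totals, 8 with no filter, 12 in DESeq2, 1 in limma-voom and 2 to 12 with 1 library left out. Calls higher were 1, but 3 in DESeq2 and 1 to 2 with 1 library left out.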
